A study of Sus scrofa with 8 samples.

Results

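The genes described here are the integrins, laminins and tetraspanins of the pig heart, the receptors, matrix proteins and membrane organisers through which cells hold to the basement membrane. They were chosen by symbol alone, as every gene of the deposited table named as an ITGA gene, a numbered ITGB, LAMA, LAMB or LAMC gene, or a TSPAN gene, together with CD9, CD63, CD81, CD82 and CD151. This gave 53 of 18975 genes. RNA-seq of heart had been made from male Tibetan and Yorkshire pigs, all 6 months old, of which Tibetan pigs from the highlands form group TH and those from the lowlands TL, and Yorkshire pigs from the highlands form YH and those from the lowlands YL. Each of the 4 groups had 2 libraries, and a library pooled the RNA of 4 pigs. The error given here is thus one between pools and not between pigs, and place and altitude cannot be told apart. No other treatment or allele is given in the labels.

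Integrins are receptors of an alpha and a beta chain that cross the plasma membrane, bind matrix proteins outside and link to the actin cytoskeleton inside. Laminins are cross-shaped trimers of an alpha, a beta and a gamma chain that build the basement membrane around cardiomyocytes and vessels. Tetraspanins are small proteins that pass the membrane several times and gather integrins and other receptors into clusters. In heart muscle these proteins hold cardiomyocytes, capillaries and leukocytes in place and carry mechanical load.

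Levels are given as FPKM, fragments per kilobase of transcript relative to the mapped fragments of the library, as the authors computed them. Between 15686825 and 26722609 reads per library fell on genes. All 8 libraries held heart muscle transcripts, with a summed FPKM of 6 ventricular cardiomyocyte markers between 12983 and 35298. Library YL2 stood apart from the rest. The summed FPKM of 15 kidney genes was 8992 in YL2 and between 1.58 and 18.1 in the other 7 libraries, and UMOD, MIOX and SLC22A8 were at 947, 661 and 283 FPKM in YL2 and at no more than 0.811 FPKM elsewhere. Each of the 16 rows of that list was highest in YL2. The labels of YL1 and YL2 name the data file of TL, against their titles and breed, and both were taken as YL by title. The counts of members that passed the looser rule in comparisons with YL on unscaled FPKM, and the member differences that passed it there, are therefore given with and without YL2. In RNA of whole tissue, fewer cells of a type and less RNA per cell cannot be told apart.

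Of the 53 members, 42 had at least 1 FPKM in at least 2 libraries and were tested with the 11913 genes that met this limit, while 11 did not meet it. A mean of at least 10 FPKM was found for 29 members (54.7%), against 22.5% of all genes, and 6 members had a mean of at least 100 FPKM. These 6 were CD81, CD63, ITGA5, TSPAN12, CD151 and TSPAN3. No row carried the symbols ITGA7 or LAMA2, so these chains of muscle were not analysed here. The row named ITGA2B has another gene's name, GPATCH8, in the table of gene names used here and was not read as the platelet integrin chain. Platelet markers were close to 0, with a summed FPKM of at most 0.0446 in any library.

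**Figure D1:**
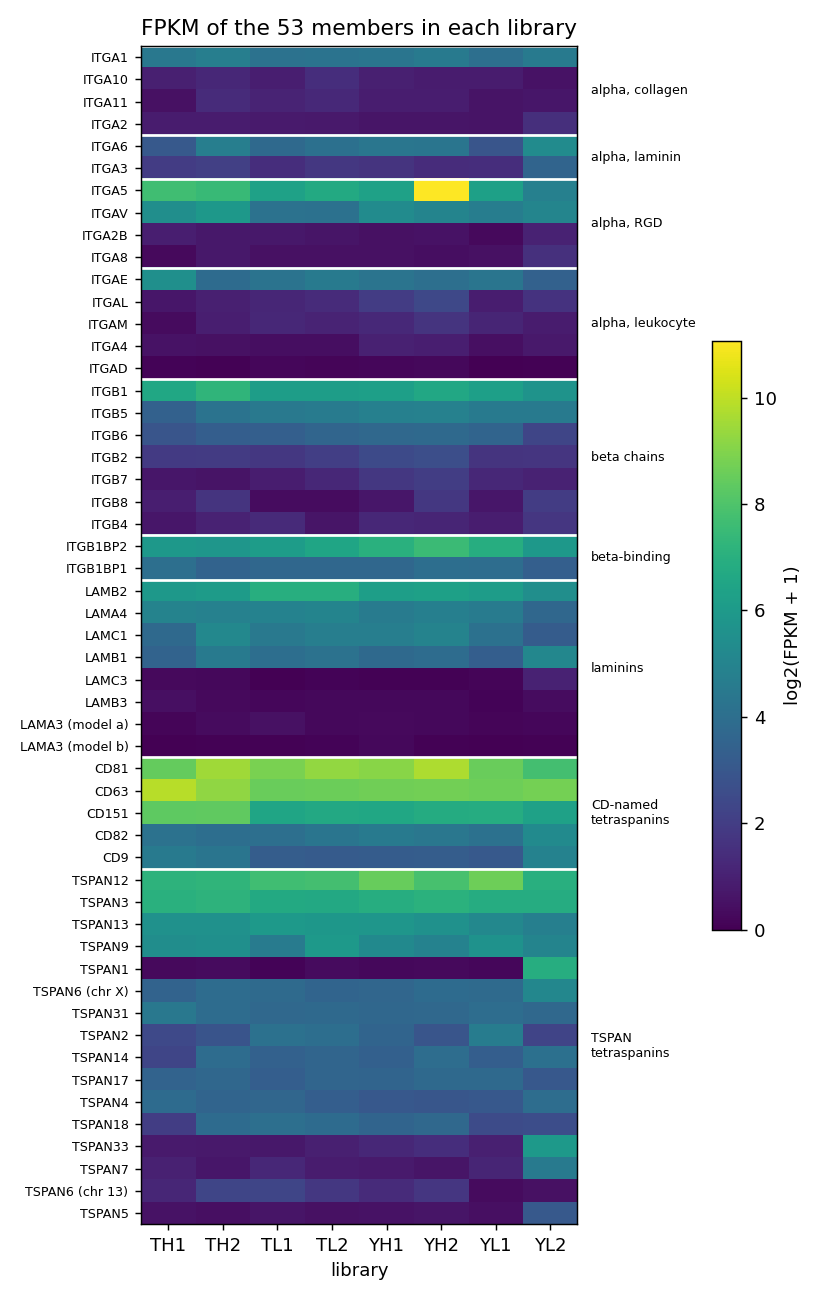
Level of each of the 53 members (rows, grouped by role) in each of the 8 libraries (columns), as log2(FPKM + 1) by colour. CD63 and CD151 are brightest in TH1 and TH2, ITGA5 stands out in YH2 at 2151 FPKM, and TSPAN1, TSPAN33 and TSPAN7 are bright in YL2.

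Among the alpha chains that bind the RGD motif of matrix proteins, ITGA5, the fibronectin receptor chain (5:20442127-20465312, build Sscrofa10.2), and ITGAV, the vitronectin receptor chain (15:101580813-101720783), were the abundant members. ITGA5 was at 202 and 173 FPKM in TH, 79.5 and 2151 in YH, 79.9 and 105 in TL and 78.4 and 27.1 in YL. YH2 was thus 10.6 times the next library. The reads on ITGA5 did not share this step. They were 23367 in YH2 and 19735 and 17346 in TH1 and TH2, next to 9573 in YH1 and 9269, 14277, 7162 and 4361 in TL1, TL2, YL1 and YL2. Per 1000 scaled reads the table gave 107 FPKM in YH2 and between 8.12 and 8.88 FPKM in the other 7 libraries. Of 11234 genes with at least 10 reads in every library, 4 (0.0356%) differed over 10 times between libraries in this measure, and ITGA5 was the member among them. On the log2(FPKM + 1) scale the TH vs. YH difference of ITGA5 was -1.14 (SE 1.36), whereas on scaled reads it was 0.63. The direction of ITGA5 between TH and YH therefore depended on which of the deposited values was used, and FPKM in TH1 and TH2 were above those of the 5 libraries other than YH2.

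**Figure D2:**
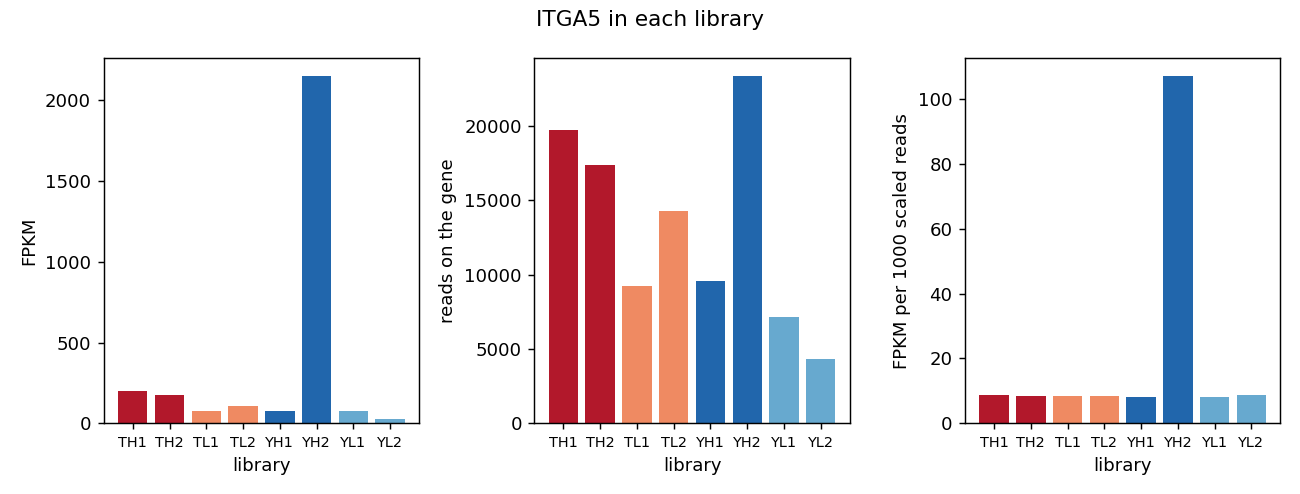
ITGA5 in each of the 8 libraries as FPKM (left), as reads on the gene (middle) and as FPKM per 1000 scaled reads (right), with bars from 0 coloured by group. YH2 reaches 2151 FPKM with 23367 reads, close to the 19735 reads of TH1, where FPKM is 202.

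ITGAV was at 43.0 and 59.3 FPKM in TH, 39.8 and 31.3 in YH, 17.2 and 16.8 in TL and 25.0 and 32.2 in YL. As FPKM, both TH libraries were above the other 6, and both TL libraries were below the other 6. In reads, YH2 was at 1299 and TL1 and TL2 were at 1108 and 1377. The TH vs. TL difference was 1.52 (SE 0.26, limma, unadjusted p = 0.000636, Benjamini-Hochberg adjusted p = 0.152), and the TH vs. YH difference was 0.51 (SE 0.26, adjusted p = 0.381). FPKM per scaled read of ITGAV also differed between libraries, by up to 2.30 times, and was highest in YH2. On scaled reads the TH vs. YH difference was 1.22 (SE 0.30, unadjusted p = 0.00354), while TH vs. TL stayed at 1.58. The remaining chains of this role, ITGA8 and the row named ITGA2B, had means of 0.591 and 0.616 FPKM and were not tested.

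ITGA1, the most abundant of the collagen-binding alpha chains, was at 20.3 and 25.5 FPKM in TH, 18.9 and 22.0 in YH, 17.3 and 17.7 in TL and 15.5 and 22.3 in YL. The largest of its 4 differences, TH vs. TL, was 0.36 (SE 0.25, limma, adjusted p = 0.627). ITGA10, at 0.446 to 1.76 FPKM, and ITGA11, with a mean of 0.907 FPKM, were low and passed no rule. ITGA2, with a mean of 0.805 FPKM, which lies 27.4 kb from ITGA1 on chromosome 16 and was not tested. The laminin-binding chains were ITGA6 and ITGA3. ITGA6 was at 7.44 and 25.9 FPKM in TH, 19.4 and 18.9 in YH, 12.7 and 16.1 in TL and 6.54 and 39.2 in YL, so that its libraries overlapped in all 4 comparisons. ITGA3 was at 10.9 FPKM in YL2 and between 1.61 and 3.27 elsewhere.

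Of the alpha chains of leukocytes, all but ITGAE were low. ITGAL, which with ITGB2 forms the receptor by which lymphocytes bind ICAM proteins, was at 0.572 and 0.983 FPKM in TH, 2.88 and 4.24 in YH, 1.27 and 1.60 in TL and 0.866 and 2.07 in YL. ITGAM, the chain of the complement receptor of myeloid cells, was at 0.257 and 0.881 FPKM in TH, 1.41 and 2.20 in YH, 1.32 and 1.15 in TL and 1.19 and 0.812 in YL. Both were highest in YH2. Both YH libraries were above the other 6 for each gene. The TH vs. YH difference was -1.35 for ITGAL (SE 0.31, limma, unadjusted p = 0.00347, adjusted p = 0.140) and -0.85 for ITGAM (SE 0.28, unadjusted p = 0.0187, adjusted p = 0.229). ITGAE, a chain of lymphocytes that bind epithelium, was at 45.0 FPKM in TH1 and between 9.91 and 22.0 in the other libraries. It rested on 105 to 348 reads and differed more between TH1 and TH2 than between the groups of any comparison. ITGA4 and ITGAD had means of 0.573 and 0.0918 FPKM and were not tested.

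All 7 beta chains were tested. ITGB1, which pairs with most alpha chains of muscle and vessel, made up 81.8% and 82.3% of the summed FPKM of beta chains in TH1 and TH2 and between 58.6% and 66.3% in the other 6 libraries. Its level was 94.7 and 152 FPKM in TH, 74.6 and 99.6 in YH, 69.9 and 71.0 in TL and 74.1 and 50.1 in YL. The TH vs. TL difference of ITGB1 was 0.76 (SE 0.32, limma, adjusted p = 0.444), and TH1 lay below YH2. Under FPKM sum scaling, which gives every library the same summed FPKM, the TH vs. YH differences of ITGB1 and ITGAV turned from 0.47 and 0.51 to -0.50 and -0.45.

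ITGB5, a partner of ITGAV (13:145063934-145108286), was lowest in TH. It was at 9.82 and 17.4 FPKM in TH, 27.6 and 27.8 in YH, 21.5 and 23.5 in TL and 21.9 and 22.8 in YL. Both TH libraries were below the other 6, on 153 and 267 reads. The TH vs. YH difference was -1.02 (SE 0.28, limma, unadjusted p = 0.00795, adjusted p = 0.177), and without TH1 it was -0.64. The ratio of ITGAV to ITGB5 within a library, which no scaling of the library can change, was 4.37 and 3.40 in TH, 1.44 and 1.12 in YH, 0.801 and 0.712 in TL and 1.14 and 1.41 in YL. Both TH libraries held more FPKM of ITGAV than of ITGB5 by over 3 times, and both TL libraries held less.

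The beta chains of leukocytes, ITGB7 and ITGB2, were highest in YH. ITGB7 (5:18830223-18839919), the beta chain of gut-homing lymphocytes, was at 0.591 and 0.480 FPKM in TH, 2.49 and 3.02 in YH, 0.841 and 1.37 in TL and 1.33 and 1.11 in YL, with 29 and 24 reads in the TH libraries and 151 and 224 in the YH libraries. Both TH libraries were below the other 6 and both YH libraries above. The TH vs. YH difference was -1.29 (SE 0.22, limma, unadjusted p = 0.000732, adjusted p = 0.0864). Since 1 was added to each FPKM, this scale understates the change of so low a gene, and on scaled reads the difference was -2.44 (SE 0.40).

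ITGB2, the common beta chain of leukocyte integrins, was at 2.64 and 2.79 FPKM in TH, 4.57 and 5.29 in YH, 2.47 and 3.21 in TL and 2.13 and 2.27 in YL. Both YH libraries were above the other 6. The YH vs. YL difference was 0.89 (SE 0.20, limma, unadjusted p = 0.00336, adjusted p = 0.626), and the TH vs. YH difference was -0.67 (SE 0.20, adjusted p = 0.203). The summed FPKM of 8 leukocyte markers moved alongside. It was 45.6 and 56.8 in YH and between 23.0 and 28.5 in the other 6 libraries. In 5 of the 8 markers (PTPRC, CD3E, NKG7, LCP1 and CSF1R) both TH libraries were below both YH libraries. The part of leukocyte content in the differences of ITGAL, ITGAM, ITGB2 and ITGB7 was not tested.

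Of the other beta chains, ITGB6 was at 6.53 and 8.84 FPKM in TH, 12.6 and 13.0 in YH, 9.10 and 11.4 in TL and 11 and 3.96 in YL. Its TH vs. YH difference of -0.68 had an adjusted p of 0.451 in limma. ITGB8 and ITGB4 had means of 1.27 and 1.19 FPKM, and neither passed a rule in any comparison.

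The symbol rule also took in proteins that bind the tail of the ITGB1 chain. ITGB1BP2, also known as melusin, a muscle protein that takes part in the response to load, was at 58.3 and 56.0 FPKM in TH, 129 and 185 in YH, 68.6 and 91.0 in TL and 118 and 58.3 in YL. Both YH libraries were above the other 6, and both TH libraries were the lowest, with YL2 next to TH1. The TH vs. YH difference was -1.42 (SE 0.38, limma, unadjusted p = 0.00755, adjusted p = 0.176). ITGB1BP1, an inhibitor of ITGB1 activation, was at 9.24 to 15.3 FPKM and its TH vs. YH difference was -0.06 (SE 0.29). The ratio of ITGB1BP2 to ITGB1BP1 was 3.82 and 5.27 in TH, 10.8 and 12.4 in YH, 5.64 and 7.7 in TL and 8.06 and 6.31 in YL.

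**Figure D3:**
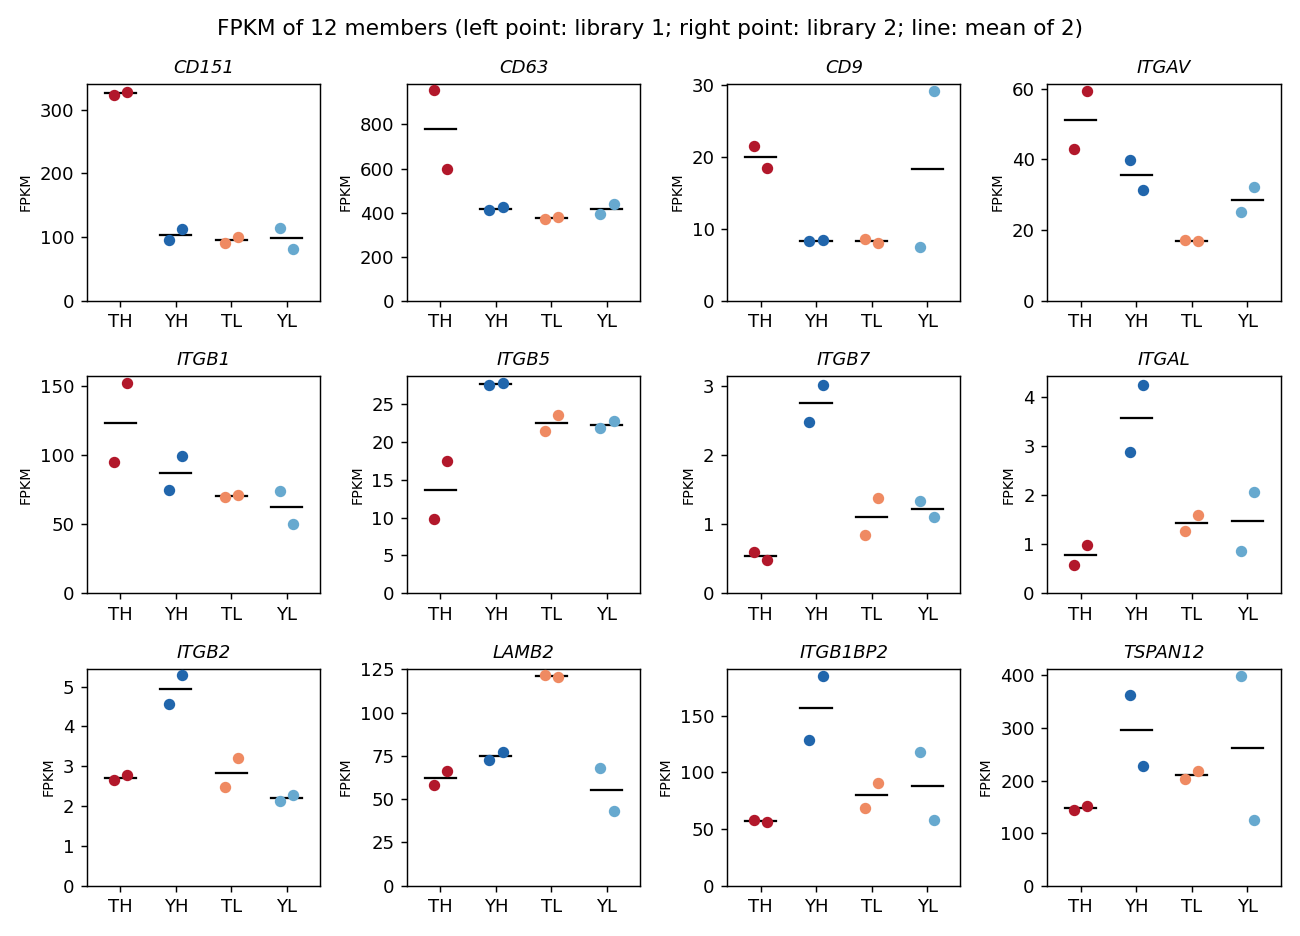
FPKM of 12 members by group (TH, YH, TL, YL), with 1 point per library and a line at the mean of the 2 libraries of a group. CD151 is at 324 and 329 FPKM in TH and at 80.8 to 115 elsewhere, ITGB7 and ITGAL are highest in YH, and LAMB2 is highest in TL at 122 and 120.4 FPKM.

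Of 8 laminin rows, the 4 tested were LAMB2, LAMA4, LAMC1 and LAMB1, with means of 78.4, 25.5, 21.9 and 16.8 FPKM. The 2 gene models of LAMA3 and the chains LAMB3 and LAMC3 had means between 0.0601 and 0.220 FPKM. LAMB2, the beta chain of muscle and synaptic basement membrane (13:34969984-34980934), was at 58.0 and 66.1 FPKM in TH, 72.6 and 77.5 in YH, 122 and 120.4 in TL and 68.0 and 42.9 in YL. Both TL libraries were above the other 6, of which YH2 came next. The TL vs. YL difference was 1.15 (SE 0.27, limma, unadjusted p = 0.00366, adjusted p = 0.271), and without YL2 it was 0.82. The TH vs. TL difference was -0.96 (SE 0.27, unadjusted p = 0.00916, adjusted p = 0.276).

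LAMB1, the beta chain that takes the place of LAMB2 in other laminins, was at 10.5 and 22.9 FPKM in TH, 12.8 and 14.1 in YH, 15.1 and 16.9 in TL and 8.91 and 33.7 in YL. LAMB2 exceeded LAMB1 by 1.27 times in YL2 and by 2.89 to 8.04 times in the other libraries. LAMB2 made up between 43.2% and 64.7% of the summed FPKM of laminin chains. LAMA4, the alpha chain of vessel walls, was at 30.4 and 28.5 FPKM in TH, 23.5 and 26.3 in YH, 29.3 and 30.7 in TL and 23.3 and 12.1 in YL, so that every Tibetan library was above every Yorkshire library as deposited. Its TL vs. YL difference was 0.79 (SE 0.30, limma, adjusted p = 0.507), which became 0.35 without YL2, and its TH vs. YH difference was 0.24 (SE 0.30), which turned to -0.71 under FPKM sum scaling. LAMC1, the gamma chain of most laminins, was at 12.7 and 35.0 FPKM in TH, 25.5 and 30.2 in YH, 21.2 and 25.4 in TL and 16.5 and 8.41 in YL.

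TH1 and TH2 differed in several of these genes. A difference of over 1 on the log2 scale between the libraries of TH was found for 8 of 42 members (19.0%), against 10.9% of all genes tested, and 7 of the 8 were higher in TH2 (LAMB1, LAMC1, ITGA6, TSPAN14, TSPAN18, CD81 and the TSPAN6 row of chromosome 13). ITGAE was higher in TH1. Of the 1300 genes that differed by this much over the whole table, 1015 were likewise higher in TH2. The summed FPKM of 6 fibroblast genes was 194 in TH1, 684 in TH2 and between 225 and 805 elsewhere. The part of this difference in the laminin values was not tested.

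CD151, a tetraspanin that binds laminin-binding integrins (2:144752-149372), differed between TH and every other group with little spread within TH. It was at 324 and 329 FPKM in TH, 94.7 and 112 in YH, 90.5 and 100.2 in TL and 115 and 80.8 in YL. These rested on 8421 and 8961 reads in TH and on 2860 to 4944 reads in the other 6 libraries. The TH mean was 326 ± 3.6 FPKM (SD, n = 2), against 95.3 ± 6.87 in TL, 104 ± 12.5 in YH and 97.8 ± 23.9 in YL. The 6 libraries outside TH overlapped with each other and none came near either TH library.

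The TH vs. YH difference of CD151 was 1.65 (SE 0.25, limma, unadjusted p = 0.000365, adjusted p = 0.0691), and the TH vs. TL difference was 1.77 (SE 0.25, unadjusted p = 0.000244, adjusted p = 0.0914). TL vs. YL was -0.02 and YH vs. YL was 0.10 (SE 0.25 each), and without YL2 they were -0.27 and -0.15. Leaving out 1 library in turn kept TH vs. YH between 1.53 and 1.77 and TH vs. TL between 1.69 and 1.84. FPKM sum scaling moved the median of all genes in TH vs. YH by -0.73 and gave 0.67 for CD151, and it moved that in TH vs. TL by -0.43 and gave 1.13. In TH vs. YH it left 2 members higher and 40 lower, against 19 and 23 without it. Within a library, CD151 over TSPAN3, a tetraspanin of even level, was 2.49 and 2.31 in TH and between 0.709 and 1.01 in the other 6 libraries. Other ratios had smaller gaps. CD151 over CD81 was 0.914 and 0.456 in TH and at most 0.379 elsewhere, and over CD63 0.338 and 0.549 and at most 0.293. Over ITGB1 it was 3.42 and 2.16 in TH and at most 1.61 elsewhere. TSPAN4, which ends 1.17 kb from the start of CD151 on chromosome 2, was at 13.6 and 10.9 FPKM in TH, 7.16 and 6.84 in YH, 11.5 and 8.98 in TL and 7.26 and 14.3 in YL, with a TH vs. YH difference of 0.72 (SE 0.32, limma, adjusted p = 0.335) that turned to -0.16 under FPKM sum scaling.

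CD63, a tetraspanin of late endosomes and secreted vesicles, was at 956 and 598 FPKM in TH, 413 and 423 in YH, 370.0 and 378 in TL and 392 and 437 in YL. Both TH libraries were above the other 6. The TH vs. YH difference was 0.85 (SE 0.30, limma, adjusted p = 0.246) and TH vs. TL was 1.02 (SE 0.30, adjusted p = 0.304). Under the FPKM sum scaling TH vs. YH of CD63 turned to -0.13, next to the shift of -0.73 in all genes.

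CD9, a tetraspanin of many epithelia and of fusing cells, was at 21.6 and 18.5 FPKM in TH, between 7.46 and 8.63 in TL, YH and YL1, and at 29.2 in YL2. Its TH vs. YH difference was 1.16 (SE 0.53, limma, unadjusted p = 0.0659) with YL2 in the fit and the same with YL2 left out. Under FPKM sum scaling it was 0.25. CD82, a tetraspanin known for limiting cell migration, was at 38.6 FPKM in YL2 and at 15.1 to 22.9 elsewhere. CD81, the co-receptor of B cells found also on most other cells, had the highest mean of all members, 516 FPKM, but on 169 to 482 reads, and its gene model lies on an unplaced scaffold. It was at 354 and 721 FPKM in TH, 549.8 and 832 in YH, 464 and 618 in TL and 373 and 213 in YL.

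The summed levels of smooth muscle and atrial markers moved with TH as well, and those of endothelial markers did not. The summed FPKM of 4 smooth muscle genes was 327 and 304 in TH and between 81.7 and 199.8 in the other libraries, although MYH11, the smooth muscle myosin, was at 0.388 and 2.69 FPKM in TH and at 1.88 to 4.87 in the others. That of 4 atrial genes was 6611 and 5376 in TH and between 389 and 2608 in the others, with NPPA, the atrial natriuretic peptide precursor, at 2263 and 2146 FPKM in TH and at no more than 108 elsewhere. MYL4 of that list went the other way from TL, with 8.85 and 21.4 FPKM in TL against 7.59 and 6.73 in TH. Endothelial genes summed to between 71.9 and 151 FPKM, with 123 and 151 in TH, 125 and 135 in TL and 126 and 139 in YH. In TH, PECAM1 was the most abundant of them, and VWF, TEK, KDR and ESAM, 4 of the 6 genes, were below both YH libraries in both TH libraries. The part of these in the levels of CD151, CD63, CD9 and ITGAV was not tested.

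TSPAN12, a partner of the frizzled receptor in vessel growth, was the most abundant gene with a TSPAN symbol. It was at 143 and 152 FPKM in TH, 363 and 228 in YH, 203 and 218 in TL and 399 and 125 in YL. Both TH libraries were below both TL and both YH libraries, but its TH vs. YH difference of -0.96 (SE 0.53, limma, adjusted p = 0.413) was smaller than the gap between YL1 and YL2. TSPAN3 was at 102 to 142 FPKM and TSPAN13 at 26.1 to 59.9. Of the other TSPAN genes, TSPAN9, TSPAN31, TSPAN2, TSPAN14, TSPAN17 and TSPAN18 had means between 9.88 and 39.8 FPKM and passed no rule with all libraries in the fit. The TL vs. YL difference of TSPAN13 was 0.92 (SE 0.22, limma, unadjusted p = 0.00471, adjusted p = 0.296), and 0.72 without YL2.

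The symbol TSPAN6 was carried by 2 rows, on chromosome X and on chromosome 13. The first was at 34.3 FPKM in YL2 and at 10.4 to 13.9 elsewhere. The second (13:90213893-90214971) was at 1.31 and 4.04 FPKM in TH, 1.55 and 2.33 in YH, 3.92 and 2.46 in TL and 0.259 and 0.418 in YL, on 3 to 59 reads. Its TL vs. YL difference was 1.63 (SE 0.40, limma, unadjusted p = 0.00483, adjusted p = 0.296), and without YL2 it was 1.71 (unadjusted p = 0.0129). How reads were shared between the rows is not given in the sources used here, so the values of both are uncertain.

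YL2 was the highest library for 12 of the 42 members tested and the lowest for 15 (28.6% and 35.7%), against 24.7% and 22.5% of all genes tested. In 5 of 53 members (9.43%) it was over 4 times every other library, against 5.52% of all genes. TSPAN1, a tetraspanin of epithelia, was at 119.6 FPKM on 4590 reads in YL2 and at 0.0732 to 0.259 FPKM on 2 to 8 reads elsewhere. TSPAN33, known from erythroid and kidney cells, was at 60.4 FPKM against 0.662 to 1.75. TSPAN7 and TSPAN5 were at 23.0 and 7.54 FPKM in YL2 and at no more than 1.34 and 0.531 in the others, and LAMC3 was at 1.08 against at most 0.213. In the same library 5 epithelial genes summed to 73.1 FPKM, against 0.576 to 7.33, and the ventricular markers to 12983 FPKM, the lowest of the 8. The part of these other transcripts in the YL2 values was not tested.

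**Figure D4:**
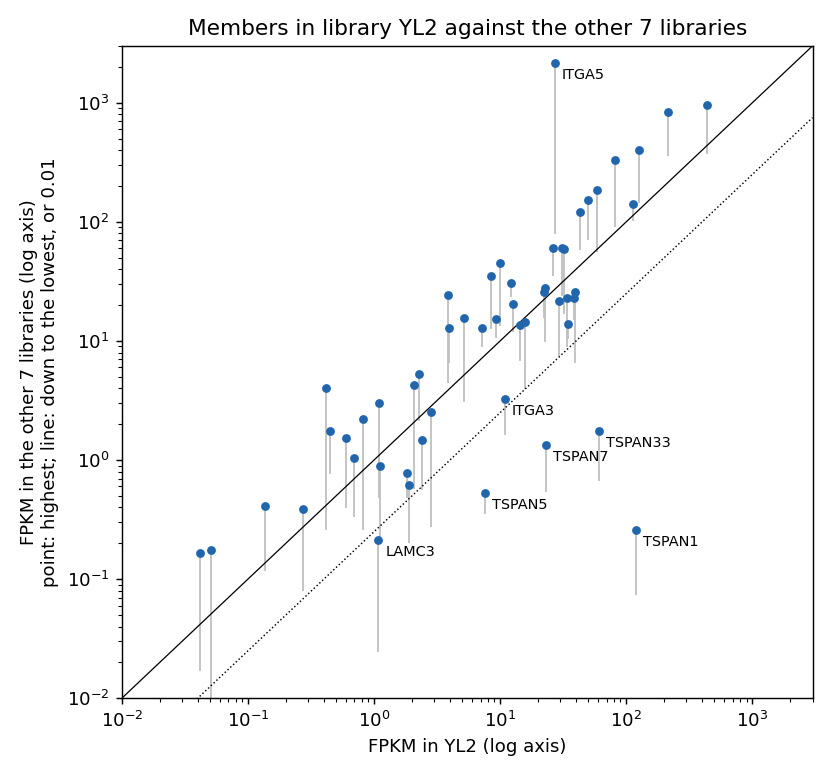
FPKM of each member in YL2 (horizontal, log axis) against the highest of the other 7 libraries (points; lines run down to the lowest, both on a vertical log axis). Points below the dotted line are over 4 times higher in YL2 than in every other library, as TSPAN1 at 119.6 against 0.259 FPKM, TSPAN33, TSPAN7, TSPAN5 and LAMC3 are; the solid line marks equal values.

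Each comparison asked what breed or altitude went with, and was read by 2 rules. A gene was called where its difference exceeded 1 on the log2 scale, in either direction, with a Benjamini-Hochberg adjusted p under 0.01. A looser rule took the unadjusted p under 0.01 with the same difference, and is read only against the share of all genes that pass it. With 2 libraries against 2, the smallest two-sided p of an exact permutation test is 0.333, and the p-values printed here therefore rest on the variance that limma shares over genes. TH vs. YH and TH vs. TL share the TH libraries, and each of the other groups is likewise used in 2 comparisons, so the counts below are not independent.

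In TH vs. YH, limma called 0 of 42 members, where 0.0336% of all genes were called. The looser rule took 5 members (11.9%), against 4.06% of all genes, with CD151 higher in TH and ITGB7, ITGAL, ITGB1BP2 and ITGB5 lower. An unadjusted p under 0.05 was reached by 8 members (19.0%), against 16.2% of all genes. The libraries of the groups did not overlap for 23 members, 9 higher and 14 lower in TH, against 52.5% of all genes (25.2% higher, 27.3% lower). The median difference of the members was -0.07, next to -0.03 over all genes. On scaled reads limma called 0 members in this and in every other comparison, and here the looser rule took 7 of the 50 members tested on that scale, the same 5 with ITGAV and ITGB2, against 4.44% of all genes. Under the FPKM sum scaling it took 4, with 0 higher and 4 lower in TH, against 2.81% of all genes.

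In TL vs. YL, 0 members were called, where 0.00839% of all genes were. The looser rule took LAMB2 and the TSPAN6 row of chromosome 13, both higher in TL, that is 4.76% against 2.03% of all genes. With YL2 in the fit, an unadjusted p under 0.05 in limma was reached by 6 members (14.3%), against 8.94% of all genes. The libraries did not overlap for 16 members, 11 higher and 5 lower in TL, against 41.5% of all genes (23.8% higher, 17.8% lower). Without YL2 the looser rule took 0 members, and without YL1, when YL2 alone stood for YL and was assumed to vary like the other groups, it took 11 and limma called 4 (TSPAN7, TSPAN33, ITGA3 and CD9, all lower in TL). Without YL1 the looser rule also took 11.4% of all genes and 2.56% were called, and without YL2 the rule took 2.45%. Under the FPKM sum scaling the rule took 0 members higher and 2 lower, TSPAN33 and TSPAN7, against 1.998% of all genes, and both of these were high in YL2 alone.

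In TH vs. TL, 0 members were called, where 0.0504% of all genes were. The looser rule took CD151 and ITGAV, both higher in TH (4.76%, against 2.57% of all genes), and 5 members had an unadjusted p under 0.05 in limma, against 11.3% of all genes. The libraries did not overlap for 21 members, 11 higher and 10 lower in TH, against 48.5% of all genes (24.0% higher, 24.5% lower). Median-ratio scaling added LAMB2 as lower, so that the rule took 2 higher and 1 lower, against 2.67% of all genes, and under FPKM sum scaling it took 0, against 1.26%.

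In YH vs. YL, 0 members were called and 0% of all genes were. The looser rule took 0 members, against 0.839% of all genes, while 6 members had an unadjusted p under 0.05 in limma (14.3%, against 5.97% of all genes). These were ITGB2, ITGB7, ITGAL, TSPAN13, CD81 and the TSPAN6 row of chromosome 13, all higher in YH. The count holds YL2, and none is given without that library. The libraries did not overlap for 21 members, 18 higher and 3 lower in YH, against 36.3% of all genes (21.9% higher, 14.4% lower), and the median difference was 0.23, next to 0.03 over all genes. Without YL2 the looser rule took ITGAL as higher in YH (1.27) and TSPAN2 as lower (-1.42), against 1.31% of all genes, and ITGB2 was at 0.92. TSPAN2, at 24.4 FPKM in YL1 and 3.89 in YL2, had a difference of -0.24 with YL2 kept. On scaled reads the rule took ITGB2 and the TSPAN6 row, against 1.17% of all genes. Under FPKM sum scaling it took 1 member as higher, ITGA5, and 2 as lower, TSPAN33 and TSPAN7, against 1.34%. ITGA5 was at 2151 FPKM in YH2 and at 79.5 in YH1, and TSPAN33 and TSPAN7 were high in YL2 alone.

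**Figure D5:**
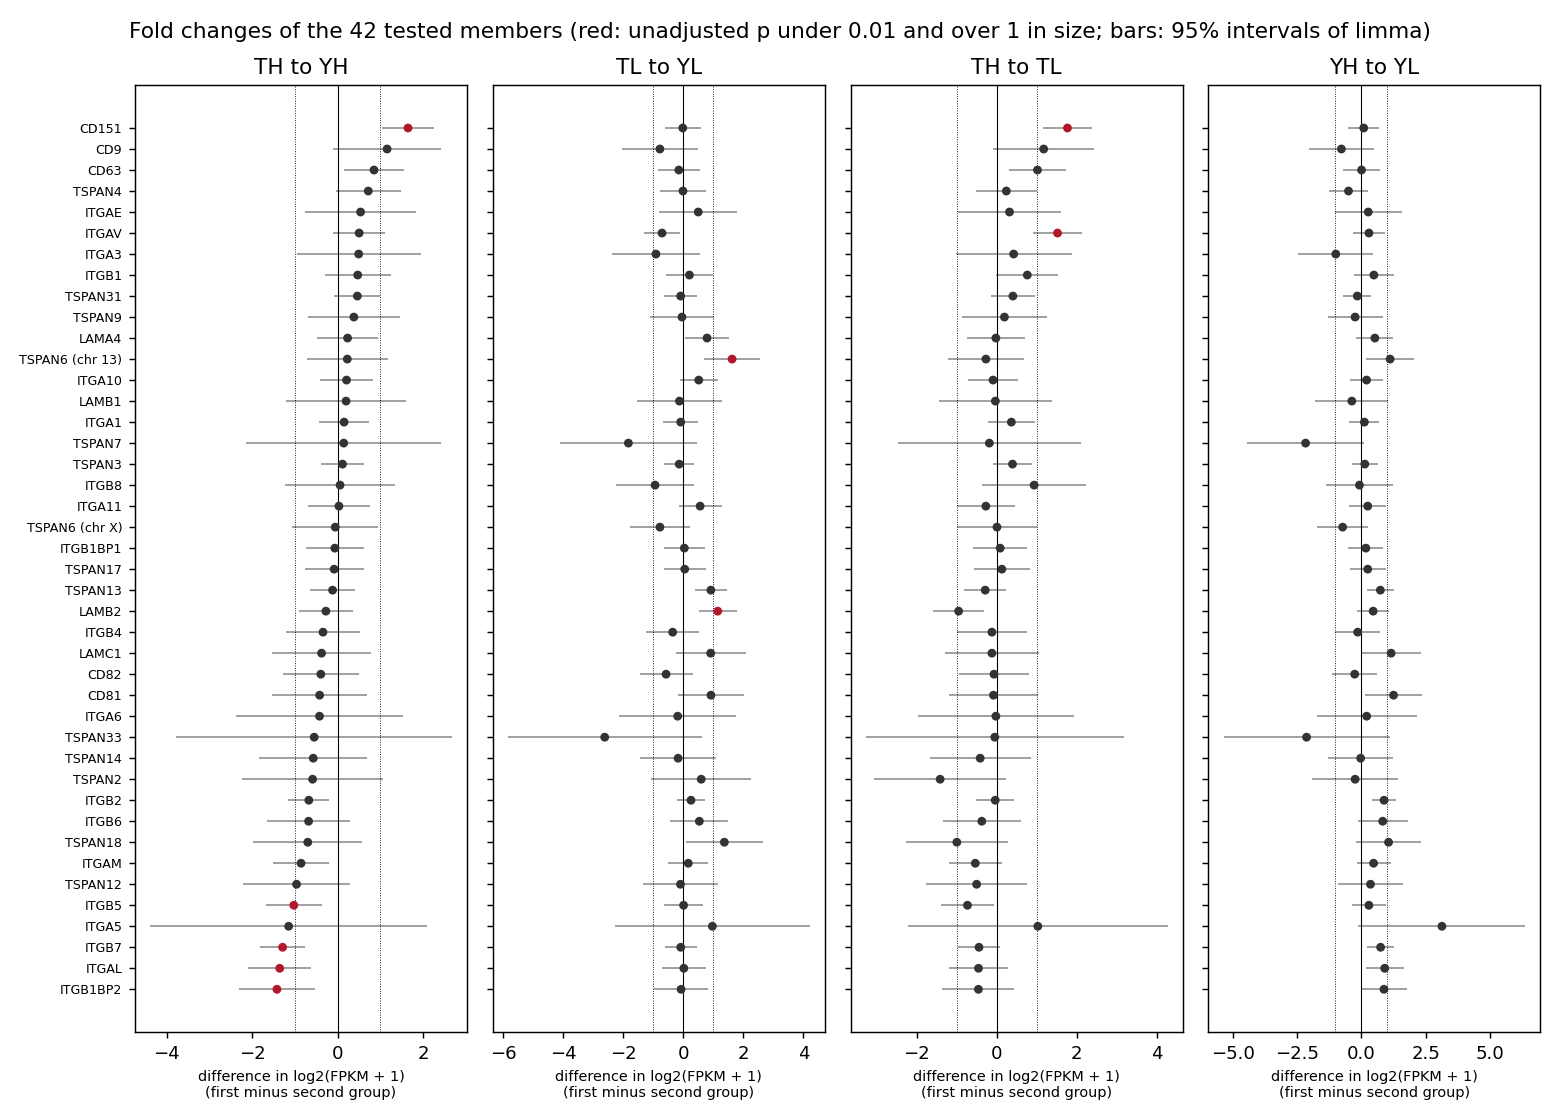
Differences of the 42 tested members in the 4 comparisons on the log2(FPKM + 1) scale, first minus second group, with 95% intervals from limma as bars, dotted lines at -1 and 1, and horizontal ranges that differ between the panels. Red points passed the looser rule: CD151, ITGB5, ITGB7, ITGAL and ITGB1BP2 in TH vs. YH, LAMB2 and TSPAN6 of chromosome 13 in TL vs. YL, and CD151 and ITGAV in TH vs. TL.

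Whether the altitude difference differed between breeds was tested with the interaction, TH vs. TL minus YH vs. YL. Of 42 members 0 were called, where 0.0336% of all genes were. The looser rule took 3 (7.14%), against 2.85% of all genes. CD151 was at 1.67 (SE 0.36, limma, unadjusted p = 0.00249, adjusted p = 0.280), ITGB7 at -1.20 (SE 0.31, unadjusted p = 0.00679, adjusted p = 0.329) and LAMB2 at -1.42 (SE 0.38, unadjusted p = 0.00718, adjusted p = 0.333). Without YL2 it took 4, CD151 (1.92), CD9 (1.02), ITGAL (-1.73) and LAMB2 (-1.09), against 3.63% of all genes, and ITGB7 was at -1.13. An unadjusted p under 0.05 with all libraries was reached by 13 members (31.0%), against 10.9% of all genes. Besides CD151, ITGB7 and LAMB2 they were ITGAV and CD9 with positive values, and ITGAL, ITGAM, ITGB2, ITGB5, ITGB1BP2, TSPAN13, TSPAN18 and the TSPAN6 row of chromosome 13 with negative values. This count holds YL2, and none is given without that library. CD9 was at 1.94 with YL2 and at 1.02 without, and CD151 at 1.67 and 1.92. On scaled reads the looser rule took 6 members, CD151, ITGAV and LAMC3 with positive and ITGAL, ITGB2 and ITGB7 with negative values, against 2.52% of all genes. Under FPKM sum scaling it took 0 with positive and 1 with negative values, ITGA5, against 1.37%. The FPKM of ITGA5 was 2151 in YH2 and 79.5 in YH1.

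Set against all other libraries, both TH libraries were above the other 6 for 3 members, CD63, CD151 and ITGAV, where 10.1% of all genes were. Both were below the other 6 for 3 members as well, ITGB7, ITGB1BP2 and ITGB5, where 8.06% of all genes were. Each share of the members is 7.14% and thus lies below that of all genes. ITGB1 and CD9 were higher in both TH libraries than in most others, with the exceptions of YH2 and YL2.

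Further lists were read as the surroundings of these genes. Of 19 tested genes of an adhesion adaptor list, which link integrin tails to actin, 0 were called in any comparison. The looser rule took 1 as higher and 1 as lower in TH vs. YH, against 4.06% of all genes. It took 1 in TL vs. YL, 1 in TH vs. TL and 1 in the interaction, against 2.03%, 2.57% and 2.85%. ACTN1, an actin cross-linker, was at 24.3 and 27.3 FPKM in TH and at 7.38 to 12.6 in the other 6 libraries, and passed the looser rule in TH vs. YH (1.17, SE 0.21) and TH vs. TL (1.22, SE 0.21). Of the 2 rows of TLN2, a talin, the one with a mean of 4.22 FPKM passed it as lower in TH vs. YH (-1.16) and in the interaction (-1.83, and -1.95 without YL2), while the one with a mean of 31.6 FPKM had a TH vs. YH difference of 0.35, and ZYX, zyxin, as higher in TL vs. YL (1.04, and 0.80 without YL2). The most abundant adaptors were TNS1, LIMS2 and ILK. TNS1, a tensin, was at 21.4 FPKM in TH1 and 102 in TH2 and at 47.2 to 129.9 in the others. LIMS2 and ILK, which act as 1 complex at integrin tails, were at 53.6 to 113 and 45.1 to 94.2 FPKM, and both had their highest value in TH1.

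Of 21 tested rows of a list of other basement membrane and laminin receptor genes, 0 were called in any comparison. In TL vs. YL 20 of the 21 were higher in TL, with a median difference of 0.64, next to 0.02 over all genes, and of 0.60 without YL2. FPKM sum scaling left 18 of them higher, with a median of 0.38. Of the 21 rows, 1 passed the looser rule there as higher, against 2.03% of all genes. In YH vs. YL 17 of the rows were higher in YH (median 0.43, and 0.32 without YL2), and in TH vs. TL 9 were higher and 12 lower in TH (median -0.32). Under FPKM sum scaling TH vs. TL had 3 higher and 18 lower (median -0.89), next to a shift of -0.43 in all genes. YH vs. YL then had 17 higher (median 0.46). Markers of other cells were higher in TL as well, where fibroblast genes summed to 805 and 626 FPKM, against 268 and 225 in YL, smooth muscle genes to 199.8 and 184, against 89.7 and 81.7, and endothelial genes to 125 and 135, against 93.1 and 71.9. Their part in the list was not tested. COL4A2 and COL4A1, the collagen chains of basement membranes, had differences of 0.86 and 0.85, and of 0.67 and 0.60 without YL2. SPARC, a collagen-binding matrix protein whose more abundant row of 2 was at 19.6 FPKM in TH1 and 187 in TH2, had one of 1.48, and of 1.65 without YL2, without passing. In TH vs. YH 1 of the rows passed as higher, against 4.06% of all genes. This was COL4A6 (1.01), at 0.237 and 0.281 FPKM in YH and 1.67 and 1.40 in TH.

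Of 10 tested rows of a list of tetraspanin partners and relatives, 0 were called in any comparison. The looser rule took 1 row in TH vs. YH, 1 in TL vs. YL and 1 in TH vs. TL, against 4.06%, 2.03% and 2.57% of all genes. It took 1 in YH vs. YL and 1 in the interaction, against 0.839% and 2.85%. CD37, a tetraspanin of leukocytes whose symbol lay outside the rule, was at 0.778 and 1.11 FPKM in TH, 2.95 and 4.15 in YH, 1.59 and 2.32 in TL and 0.824 and 1.1 in YL. It passed the looser rule as lower in TH vs. YH (-1.22, SE 0.25) and as higher in YH vs. YL (1.2, SE 0.25, and 1.31 without YL2), and in the interaction (-1.80, and -1.90 without YL2), beside the leukocyte markers given above. CD44, the hyaluronan receptor, was at 75.5 and 81.1 FPKM in TH, 13.0 and 42.6 in YH, 11.2 and 16 in TL and 17.0 and 16 in YL, and passed it in TH vs. TL (2.47, SE 0.50). PTGFRN, a partner of CD9 and CD81, passed it in TL vs. YL (1.15, and 0.84 without YL2).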

How the data were processed

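RNA-seq libraries of heart, 2 per group, were used as deposited. Per the labels and methods, reads were aligned to Sscrofa10.2 with TopHat2 2.0.9 and Bowtie 0.12.5, and differential expression was called with DESeq 1.10.1. The deposited table holds FPKM, which the authors computed per library and gene, and a signal, the reads of a gene multiplied by the authors with a factor particular to the library. Dividing that signal by its step, taken from its most frequent low values, gave whole numbers for 99.8% of low values (tolerance 0.02), used here as reads. Another 8 columns, group means and ratios made by the authors, were not used.

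The log2(FPKM + 1) values of the 8 libraries were fitted by limma 3.58.1 (R 4.3.3), using a linear model with 1 term for each group and a trend on the mean. Tested genes reached 1 FPKM in 2 or more libraries, p-values were two-sided and adjusted over all of them (Benjamini-Hochberg), and the script was tested on simulated data. Differences are on the log2(FPKM + 1) scale. "Higher" is said of the group named first. Members were named where they passed a rule, were among the 3 highest of their role, stood over 4 times above every other library or were named by the study. ITGB2, ITGB4, ITGB8, LAMB1, CD9, CD82, TSPAN4 and the TSPAN6 row of chromosome X were added after their values were seen. Members, lists and markers were chosen with earlier results of these data known. Of the 53 members, 47 had an entry in the table of gene names. Loci are those of the deposited table. Figures were made with Python 3.11.15 and matplotlib 3.10.9. A gene of the basement membrane list is not reported here.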

Additional observations from a re-analysis of the deposited data

How the results depend on the processing

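Of 77 alternative settings for the number of called members, 73 gave 0. The exceptions were 1 in YH vs. YL under FPKM sum scaling (ITGA5) and, without YL1, 4 in TL vs. YL, 4 in YH vs. YL and 3 in the interaction, where 0.369%, 2.56%, 2.56% and 1.28% of all genes were called, so with 1 library left out the counts ranged from 0 to 4, 0 to 4 and 0 to 3. ITGA5 was at 2151 FPKM in YH2 and at 79.5 in YH1. The cause of these exceptions was not tested. The looser rule took, with 1 library left out, 2 to 7 members in TH vs. YH, 0 to 11 in TL vs. YL, 2 to 5 in TH vs. TL, 0 to 7 in YH vs. YL and 0 to 15 in the interaction, with the highest of TL vs. YL, YH vs. YL and the interaction reached without YL1. The share of all genes it took moved alongside, from 1.7% to 10.25%, 0.881% to 11.4%, 1.03% to 6.87%, 0.395% to 10.7% and 0.999% to 11.7% in the same order. It took 3 in TH vs. YH and 1 in TL vs. YL at a mean of at least 10 FPKM (4.71% and 2.48% of all genes), where fewer genes were tested. Under FPKM sum scaling it took 0 in TH vs. TL, 3 in YH vs. YL and 1 in the interaction (1.26%, 1.34% and 1.37% of all genes). With only the 4 libraries compared it took 5 in TH vs. TL and 2 in YH vs. YL (3.3% and 0.823%). It took 2 in YH vs. YL at a pseudocount of 0.1 (1.07%), and 2 there and 6 in the interaction on scaled reads (1.17% and 2.52%), a setting chosen after seeing the data, as was leaving out libraries of groups not compared. Of 161 alternative values of the 12 differences that passed the looser rule, 113 passed it again, 48 kept their direction without passing and 0 turned. Several settings, such as the replicate block or the fit without a trend, leave the difference itself unchanged. The 12 were also picked for a difference over 1, so that few could turn.

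With the replicate number as a block (replicate block), the looser rule took 4 members in TH vs. YH, 2 each in TL vs. YL and TH vs. TL, 0 in YH vs. YL and 2 in the interaction, where it took 3.94%, 1.95%, 2.44%, 0.797% and 2.52% of all genes. ITGB1BP2 in TH vs. YH and ITGB7 and LAMB2 in the interaction were then not taken, and ITGAL was taken in the interaction. Over all genes tested, the deviations of same-numbered libraries from their group means correlated between -0.08 and 0.12. No pairing by number was thus seen. The count tests of edgeR and DESeq2 planned as alternatives were not run, since a few values of the deposited signal lie below its step. The reads printed here are therefore approximate and were not tested as counts. The interaction has no fit of only the 4 libraries compared. Low members such as ITGB7 and ITGAL rest on 24 to 459 reads, which limits their precision.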

Other observations

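Genes of these families that the deposited table leaves without such a symbol, and that were named here from the table of gene names, are given as values. TSPAN11 (5:69160418-69215143) was at 18.9 FPKM in YL2 and at 0.290 to 3.49 in the other 7 libraries. ITGA9 was at 0.283 and 1.85 FPKM in TH1 and TH2 and at 0.880 to 2.56 in the others. The row named CD61, which is ITGB3 in the table of gene names, was at 1.60 and 1.37 FPKM in TH, 0.870 and 1.40 in YH, 0.979 and 0.965 in TL and 0.558 and 0.470 in YL.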
